A study of Mus musculus with 58 samples.

Results

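Parvalbumin (PV) interneurons of small capacitance were split by how readily current leaked across their membrane, and their transcripts were compared. The members were the cells with the quality label Pass and a labelled capacitance (cm) of at most 40: 8 leaky cells with a labelled resistance (rm) of at most 270, and 9 mid cells with rm above 270 and below 440. These 17 cells were taken from 54 Pass cells and 58 cells in all, and 29 of the Pass cells had a cm of at most 40. The labels rm, cm and vrest are read here as membrane resistance, capacitance and resting potential; they carry no unit, so the values are printed without one.

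All cells came from the ventral subiculum, where much of the output of the hippocampus leaves, in PV-Cre::Ai9 mice, in which Cre recombinase under the parvalbumin gene switches on a red reporter; the reporter stays on in any cell that once used Cre. Each library holds the cytosol of 1 cell taken up by the patch pipette, and can also carry RNA of what the pipette touched on its way. No cell was treated. The leaky group held 1 cell of male mice at postnatal day (P) 35, 1 of males at P36, 4 of females at P40 and 2 of females at P42. The mid group held 4 cells of males at P35, 3 of females at P40 and 2 of females at P42. The series drew on 4 male and 3 female animals, but no label ties a cell to its animal.

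As background, the resistance of a resting neuron is set by its surface and by the channels open in it. Capacitance follows the surface, so cells of like capacitance and unlike resistance differ in conductance per surface or in the quality of the recording. The channels usually named for the resting conductance are the two-pore potassium channels, the inward rectifiers, the hyperpolarization-activated HCN channels, the sodium leak channel NALCN, chloride channels and the GABA-A receptors that answer to ambient GABA. PV cells are fast-spiking interneurons known for low resistance, Kv3 potassium channels that end the spike quickly, and a high use of energy.

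The capacitances of the groups overlapped: cm was 26 to 40 in the leaky cells (median 36.5) and 24 to 38 in the mid cells (median 34). The rm values, which defined the groups, were 197 to 261 (median 233.5) and 274 to 430 (median 312). At the lower rm limit the nearest cells were at 261 and 274, and at the upper limit they were at 430 and 443. The leaky cells rested at -61.6 to -49 (median -55.5, n = 8) and the mid cells at -67 to -55 (median -61, n = 7, since the mid cells of females at P42 have no such label). Total counts per cell were 2.05 to 27.8 M in the leaky cells and 2.07 to 52.3 M in the mid cells. Mean cm was larger in the leaky cells of each of the 3 age pools with cells of both groups, at 36, 33 and 38.5 against 34.25, 30 and 31 in mid cells (males at P35, females at P40 and at P42), a mean difference of 4.08. The groups thus differed somewhat in cm as well as in rm, and the part of cm in the results below was not tested.

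**Figure D1:**
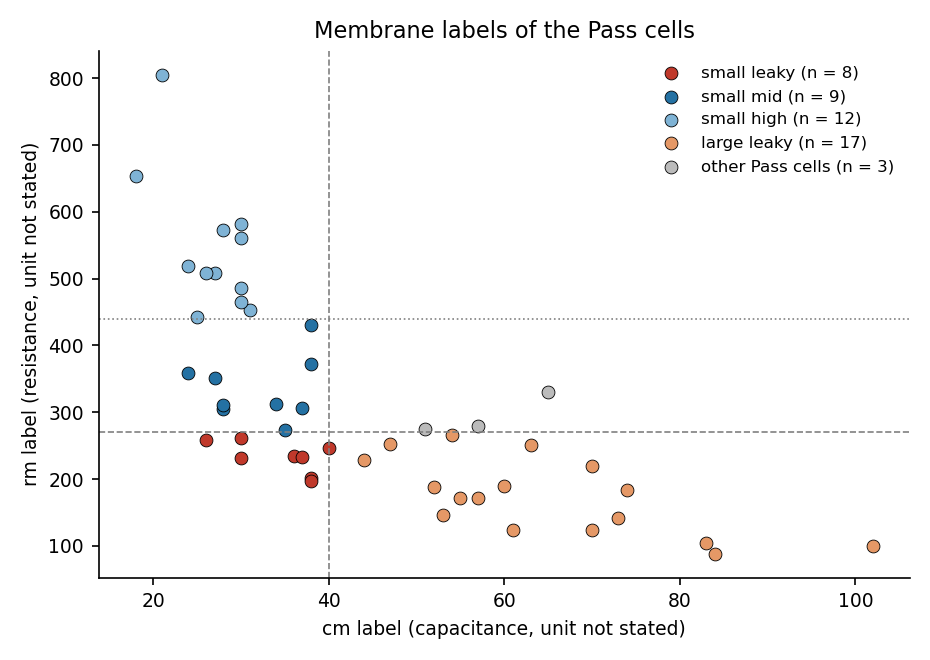
Labelled resistance (rm, vertical axis) against labelled capacitance (cm, horizontal axis), both of unstated unit, for the Pass cells with both labels; each point is 1 cell, the dashed lines mark cm 40 and rm 270, and the dotted line marks rm 440. The 8 small leaky cells lie at rm 197 to 261 and the 9 small mid cells at 274 to 430, over overlapping ranges of cm.

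Because cells of 1 animal share their source, counts were summed over the cells of a group within an age pool, and 6 sums (3 pools, both groups) were compared with edgeR's quasi-likelihood test with the pool as a block. The leaky cell of males at P36 has no mid partner and was left out of this fit, so 7 leaky cells entered it. The p-values rest on the spread between these pools, and a pool may hold several animals. The test draws each gene's spread toward that of all genes. The median weight of that shared spread was 7.05 degrees of freedom, beside 2 residual ones of the gene itself. Pool levels are counts per 1000000 counts (CPM) after TMM scaling of the library sizes, while a single cell's level is its CPM without that scaling. A sum gives more weight to deep libraries. In females at P40, mid cell 5 held 52.3 M counts and the other mid cells 4.64 and 8.65 M. The leaky sum of males at P35 is 1 cell. All fold changes are on the log2 scale as leaky minus mid.

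No gene passed the test. Of 12593 genes tested, 0 were higher (0%) and 0 lower (0%) in leaky cells at an adjusted p under 0.05, and the smallest edgeR adjusted p was 0.459. At an unadjusted p under 0.05, 186 genes were higher (1.48%) and 278 lower (2.21%). In DESeq2 on the same sums, 144 were higher (1.14%) and 228 lower (1.81%) at an adjusted p under 0.05. In single cells, no gene had all 8 leaky cells above (0%) or below (0%) all 9 mid cells. For some genes below, all 8 leaky cells, with that of males at P36, lay on 1 side of the mid median. The share of all genes with that pattern was not counted, so it is given as a description. The precision of the design was low: in data simulated with the same means and spread, edgeR recovered 0 of 50 genes changed 2-fold, 3 of 50 changed 4-fold and 25 of 50 changed 8-fold. What follows therefore gives measured values, none of which is a call of edgeR.

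The resting conductance genes came first, since the groups were cut by resistance. Across the lists of two-pore channels, inward rectifiers, HCN channels with their partners, the sodium leak complex, chloride channels and extrasynaptic GABA-A subunits, 55 genes were listed and 44 tested. At an unadjusted p under 0.05, 0 were higher and 2 lower in leaky cells (4.55% of the 44, where 3.68% of all genes had such a p in either direction). The median difference of the 44 was -0.03, against -0.01 for all genes. Of the 44, 21 were positive and 23 negative, where 49.5% of all genes were positive.

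Two-pore channels carry the background potassium current. Kcnk1 (TWIK-1), the most abundant of them here, was at 149 to 375 CPM in leaky cells (median 231) and at 119 to 361 CPM in mid cells (median 253), and its difference was -0.17 (standard error 0.33, p = 0.61). The ranges of the groups were nearly the same. Kcnk3 (TASK-1), an acid-sensitive leak channel, had pool levels of 100, 67.0 and 105 CPM in leaky cells of males at P35 and females at P40 and P42, the order used from here on, against 38.6, 18.6 and 113 CPM in mid cells. It lay above the mid level in the first pools and not in the last (1.05, standard error 0.60, p = 0.111). Kcnk12 (THIK-2), a member that gives little current on its own, lay above the mid level in every pool: 31.0, 30.5 and 42.4 CPM against 6.75, 3.66 and 26.1 CPM (1.997, standard error 1.12, p = 0.109). Kcnk2 (TREK-1), a channel opened by stretch and lipids, was at a median of 7.65 CPM in leaky cells and 16.9 CPM in mid cells (-0.51, standard error 1.19). Kcnk9 (TASK-3) had a count in 3 of the 17 cells and was not tested. Summed over the 10 two-pore genes, leaky cells held 206 to 500.4 CPM (median 399) and mid cells 260 to 529 CPM (median 337), and the ranges overlapped.

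Inward rectifiers pass potassium near rest and below it. Of 11 genes, 8 were tested, 3 were positive and 5 negative, and no p was under 0.05. The G-protein-gated subunit Kcnj3 (GIRK1) was at a median of 36.4 CPM in leaky and 56.0 CPM in mid cells (-0.39, standard error 0.63). Its partner Kcnj9 (GIRK3) was at medians of 88.7 and 36.2 CPM (1.001, standard error 0.66, p = 0.162). The strong rectifiers Kcnj4 (Kir2.3) and Kcnj12 (Kir2.2) were sparse, with medians of 0.152 and 0.431 CPM for Kcnj4 and of 7.48 and 0.932 CPM for Kcnj12, and the standard errors of their differences (2.30 and 1.70) exceeded or nearly equalled the differences (0.72 and -2.23). None of these genes separated the groups beyond the spread between pools.

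HCN channels carry the depolarizing current that opens on hyperpolarization. Hcn2 was at medians of 35.4 and 31.9 CPM (0.23, standard error 0.82). Pex5l (TRIP8b), the subunit that sets how many HCN channels reach the membrane, had pool levels of 19.5, 12.6 and 13.4 CPM against 5.79, 0.551 and 0.09 CPM. It lay above the mid level in each pool, and 5 of 8 leaky and 1 of 9 mid cells reached 10 CPM (4.43, standard error 2.11, p = 0.0648).

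Nalcn, the pore of the sodium leak channel, was at 10.2 to 147 CPM in leaky cells and 1.29 to 165 CPM in mid cells, with a difference of -0.49 (standard error 0.61). The 2 resting conductance genes with an unadjusted p under 0.05 were the chloride transporter Clcn5 (-4.02, standard error 1.67, p = 0.0392) and the calcium-activated chloride channel Ano1 (-5.60, standard error 2.39, p = 0.0434), both low. Clcn5 had a median of 1.53 CPM in leaky and 8.68 CPM in mid cells, and Ano1 of 0.178 and 1.45 CPM. Both medians were lower in the cells of lower resistance. Clcn5 protein is known mainly from endosomes.

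Among GABA-A receptors, the extrasynaptic delta subunit Gabrd was at 60.5 to 583 CPM in leaky cells (median 284) and 11.2 to 377 CPM in mid cells (median 179), and the pools disagreed in sign (-0.04, standard error 0.50). The synaptic beta-2 subunit Gabrb2 had pool levels of 122, 129 and 53.7 CPM against 22.7, 57.1 and 34.5 CPM (1.41, standard error 0.60, p = 0.0432). Of 9 tested synaptic subunits 2 were higher at an unadjusted p under 0.05 (1.48% of all genes), and 5 of the 9 were negative, so the subunits did not move as a block (median -0.29). Summed over the 9 genes, leaky cells held 1544 to 2960 CPM (median 2121) and mid cells 466.3 to 2124 CPM (median 1385).

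The potassium chloride cotransporter Slc12a5 (KCC2), which keeps chloride low in mature neurons, was at medians of 150 and 156 CPM (0.30, standard error 0.36). The gap junction gene Gjd2 (connexin 36), through which PV cells couple electrically and so can lower their apparent resistance, was at medians of 4.07 and 2.31 CPM (0.25, standard error 1.85). Neither separated the groups.

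**Figure D2:**
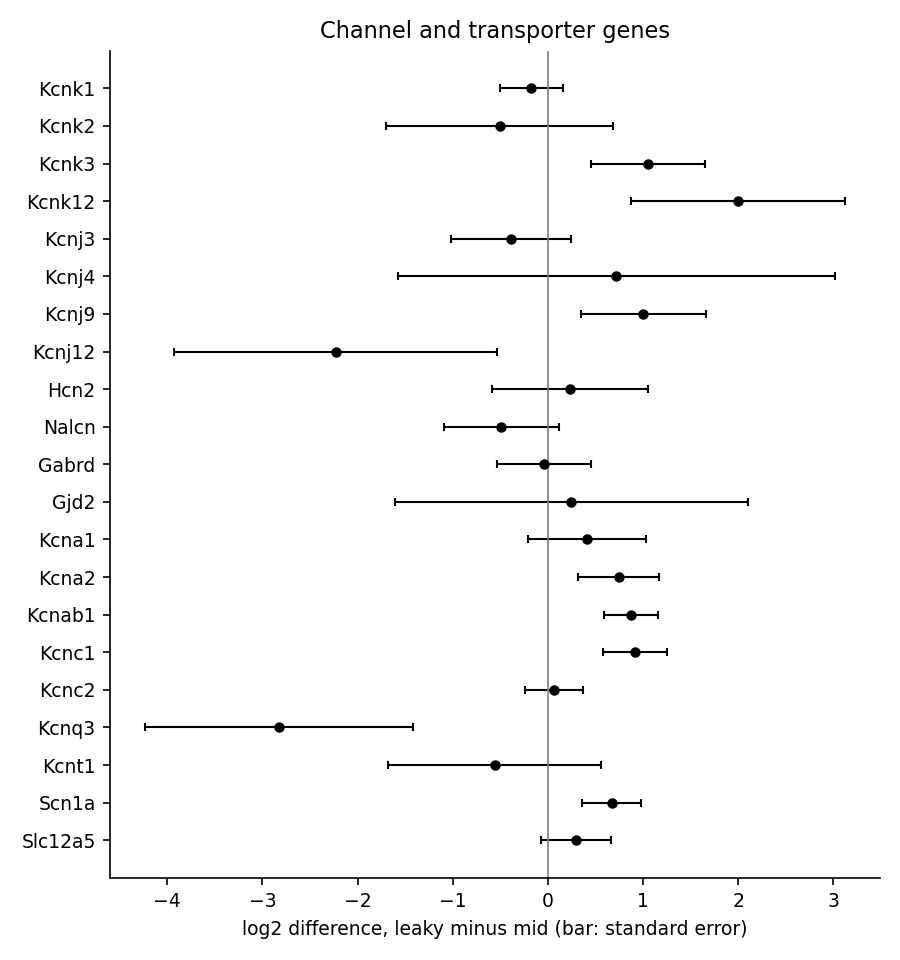
Difference in expression between small leaky and small mid cells (leaky minus mid, log2, horizontal axis) for 21 channel and transporter genes; points are edgeR estimates over 3 age pools and bars are 1 standard error. Kcnc1 (0.92) and Kcnab1 (0.88) are the genes plotted with an unadjusted p under 0.05, and no gene plotted passed the adjusted threshold.

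Of 32 genes tested in the Kv1, Kv3 and Kv2, Kv4 and Kv7 lists of voltage-gated potassium channels, 2 had an unadjusted p under 0.05, both higher in leaky cells (6.25%, against 3.68% of all genes in either direction). With the silent Kv subunits described below, a list added after values were seen, the count was 3 higher and 1 lower of 39 tested. One was Kcnc1 (Kv3.1, chr7:46396497-46438704, plus strand), a pore subunit of the fast Kv3 current of PV cells. Its pool levels were 421, 464 and 519.6 CPM against 136, 319 and 347 CPM. Leaky cells held 384 to 594 CPM (median 474) and mid cells 114 to 470 CPM (median 280), so 7 of 9 mid cells lay below the lowest leaky cell (0.92, standard error 0.33, p = 0.022). The related pore gene Kcnc2 (Kv3.2) was at medians of 531 and 502 CPM (0.06, standard error 0.31), with no such separation. The other of the first lists was Kcnab1, a cytoplasmic beta subunit of Kv1 channels (chr3:65109384-65378223, plus strand), at 328, 627 and 390 CPM in leaky and 191, 325 and 209 CPM in mid pools (0.88, standard error 0.28, p = 0.0131). The Kv1 pore genes Kcna1 (0.41, standard error 0.62) and Kcna2 (0.75, standard error 0.43) were less precise.

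Kv7 channels carry the M current, a potassium current open near rest. Kcnq3 was at medians of 1.26 and 22.8 CPM (-2.83, standard error 1.41, p = 0.0752). In the fit this did not exceed the spread between pools. The sodium-activated channel Kcnt1 was at medians of 30.0 and 24.1 CPM (-0.56, standard error 1.12).

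Electrically silent Kv subunits form no channel alone and alter Kv2 channels when they join them. Kcng4 (Kv6.4, chr8:119623854-119635680, minus strand) was high in most leaky cells and low in most mid cells. Its pool levels were 105, 109 and 49.8 CPM in leaky cells and 4.67, 0.338 and 1.41 CPM in mid cells. The leaky cells held 102 CPM (male P35), 2.13 CPM (male P36), 6.81, 56.4, 155 and 115 CPM (female P40) and 119 and 20.5 CPM (female P42). The mid cells held 0, 9.15, 0.632 and 28.0 CPM (male P35), 0.0573, 1.08 and 1.27 CPM (female P40) and 1.02 and 1.82 CPM (female P42). Thus 6 of 8 leaky cells and 1 of 9 mid cells reached 10 CPM, and 5 leaky cells lay above every mid cell. The difference was 5.85 (standard error 1.09, unadjusted p = 0.000455, edgeR adjusted p = 0.707), and DESeq2 gave an adjusted p under 0.05. DESeq2 did so for 372 genes in all, among them Kcns2, described next.

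Kcns2 (Kv9.2, chr15:34837355-34843407, plus strand), another silent subunit and one singled out after its values were seen, lay on the other side. Pool levels were 0, 0.114 and 0.148 CPM in leaky cells and 1.89, 164 and 24.6 CPM in mid cells (-9.07, standard error 1.44, p = 0.000138, edgeR adjusted p = 0.58). No leaky cell exceeded 0.837 CPM. In the mid group 3 cells carried it, at 32.3, 176 and 49.1 CPM, and the other 6 held 0 to 2.20 CPM, so the pool difference rests on 3 cells. Of 8 silent subunits tested, these were the 2 with an unadjusted p under 0.05, in opposite directions. Of all genes 1.48% were higher and 2.21% lower at such a p. Since the list was added after values were seen, its count is a description and not a test.

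Scn1a (Nav1.1), the sodium channel on which PV cell firing depends, was at medians of 344 and 227 CPM (0.67, standard error 0.31, p = 0.0609). Of the 7 calcium channel pore genes tested 6 were negative (median -0.78); Cacna1c (Cav1.2) was at medians of 1.64 and 13.1 CPM (-3.33, standard error 1.67, p = 0.0768).

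Both groups carried the transcripts of GABAergic cells. Gad1, which makes most GABA, was at 2707 to 5359 CPM in leaky cells (median 4253) and 1776 to 5329 CPM in mid cells (median 2661), with all 8 leaky cells above the mid median (0.41, standard error 0.26, p = 0.14). Gad2 (-0.39, standard error 0.36) and the vesicular transporter Slc32a1 (-0.46, standard error 1.09) did not separate. Among 6 tested genes of GABA synthesis and transport 2 were higher at an unadjusted p under 0.05, as were 1.48% of all genes. Abat, the enzyme that breaks GABA down, was at 539, 680.3 and 399 CPM in leaky and 235, 142 and 339 CPM in mid pools (1.23, standard error 0.41, p = 0.0144). Summed over the 7 listed genes, leaky cells held 4813 to 8268 CPM (median 7229) and mid cells 3231 to 7026 CPM (median 4546); the exact two-sided sign-flip test over 3 pools gave p = 0.25, its smallest value.

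Pvalb (chr15:78191114-78206400, minus strand), which encodes the calcium buffer that names these cells, was found at 97.3 to 582 CPM in the leaky cells (median 145). In the mid cells it was spread from 1.27 to 788 CPM (median 46.3). The mid cells held 72.7, 4.93, 13.3 and 46.3 CPM (male P35), 403, 788 and 54.3 CPM (female P40) and 1.27 and 3.34 CPM (female P42). So 7 of 9 mid cells lay below the lowest leaky cell, while 1 lay above the highest. The pools were 145, 238 and 110 CPM against 16.8, 448 and 2.28 CPM, and the females at P40 ran against the others (2.77, standard error 1.22, p = 0.0496). In the fit with no term for the pool, which also took in the male P36 leaky cell, the difference was -0.06. Every leaky cell thus carried this defining transcript at 97.3 CPM or more, while 3 mid cells were under 10 CPM.

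Ift27, a subunit of the transport machinery of cilia, is annotated next to Pvalb on the same strand (chr15:78159463-78174107), with no overlap. It was at 400.1, 341 and 279 CPM in leaky pools and 72.7, 127 and 78.1 CPM in mid pools (1.91, standard error 0.36, p = 0.000516, edgeR adjusted p = 0.707). Of 8 leaky cells, 5 lay above every mid cell. The 2 mid cells of highest Pvalb held 88.3 and 302 CPM of Ift27.

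Of 14 PV interneuron markers tested, 3 were higher and 4 lower at an unadjusted p under 0.05, where 1.48% of all genes were higher and 2.21% lower. Pvalb was one of the higher ones. Syt2, the fast release sensor of PV terminals, was at 222, 130 and 15.4 CPM in leaky and 32.6, 9.47 and 6.81 CPM in mid pools (2.59, standard error 0.70, p = 0.00469). Cplx1, a release regulator, was at medians of 2694 and 2364 CPM (0.25, standard error 0.25). Akr1c18, the third of the higher ones, rested on few cells: 3 of 8 leaky cells held 8.12, 9.36 and 148 CPM and all other cells of both groups at most 0.966 CPM. The 4 lower ones were named after their values were seen. Tac1, the precursor of substance P, was at 742, 557 and 529.8 CPM in leaky and 595, 1876 and 1657 CPM in mid pools, lower in 2 of 3 (-1.05, standard error 0.42, p = 0.0333). Sox6, a transcription factor of interneurons from the medial ganglionic eminence, had leaky pool levels of 41.1, 34.6 and 57.1 CPM and mid pool levels of 53.7, 294 and 106 CPM (-1.41, standard error 0.63, p = 0.0499). The guidance ligand Slit2 had 34.6, 79.6 and 12.5 CPM in leaky pools and 66.0, 221 and 28.4 CPM in mid pools (-1.20, standard error 0.51, p = 0.0448; 0.18 without mid cell 8). Pthlh, a secreted peptide, had 0.554, 4.94 and 7.61 CPM in leaky pools and 55.3, 46.9 and 22.6 CPM in mid pools (-3.66, standard error 1.47, p = 0.0345), with all 8 leaky cells below the mid median. The mid pool levels at P40 lean on mid cell 5: it held 302 CPM of Sox6, and the others 78.6 and 39.5 CPM. Without mid cell 5 the differences were -0.79 for Tac1, -0.67 for Sox6, -0.36 for Slit2 and -3.33 for Pthlh. Counted as a list the markers thus ran both ways.

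Neurofilament genes, which build the axonal skeleton and are typical of fast-spiking cells, are described from a list that also holds other axonal and cytoskeletal genes. Of 12 genes of the neurofilament and axonal list, 5 were higher and 1 lower at an unadjusted p under 0.05, where 1.48% of all genes were higher and 2.21% lower. Nefm was at 323, 391.9 and 357 CPM in leaky and 220.1, 99.1 and 117 CPM in mid pools (1.39, standard error 0.38, p = 0.00514). Nefl (0.89, standard error 0.33), Nefh (0.90, standard error 0.40), Ina (0.80, standard error 0.30) and the axonal spectrin Sptbn4 (1.70, standard error 0.71) were the other 4. For Nefl and Ina all 8 leaky cells lay above the mid median. Actb, a general cytoskeletal gene, was the 1 lower member (-0.67, standard error 0.29). The median of the list was 0.26, against -0.01 for all genes; without the 4 mid cells described below that carry blood transcripts it was 0.06, where the median of all genes was 0.12.

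Of the 16 genes of smallest p with the same sign in every pool, 14 reached 10 CPM in at least 1 cell of both groups, and the other 2, Scrn2 and Ptbp1, did so in leaky cells alone. The same sign in all 3 pools was found in 25.5% of all genes. On the leaky side Scrn2, a secernin of unsettled function (chr11:97029938-97033958, plus strand), was at 17.5, 33.9 and 29.6 CPM against 0.082, 0.0711 and 0.15 CPM. Leaky cells held 17.03, 0.322, 12.2, 44.6, 28.8, 32.9, 0.464 and 48.4 CPM, and no mid cell exceeded 0.966 CPM. So 6 leaky cells carried it and 2 did not (8.03, standard error 1.75, p = 0.0013, edgeR adjusted p = 0.9997). Ptbp1, a repressor of neuronal splicing (chr10:79854427-79864771, plus strand), was at 21.2, 75.5 and 31.9 CPM against 0.383, 0.355 and 0.9 CPM, and 6 of 8 leaky cells and 0 of 9 mid cells reached 10 CPM (6.19, standard error 1.39, p = 0.00155). Abcb9, a lysosomal peptide transporter (chr5:124061530-124095798, minus strand), was at 28.2 to 152 CPM in leaky cells (median 53.2) and 0.517 to 71.5 CPM in mid cells (median 3.01), with 7 of 9 mid cells below every leaky cell (3.52, standard error 0.91, p = 0.00364).

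The other 3 on that side, beside Kcng4, Ift27, Scrn2, Ptbp1 and Abcb9, were the adhesion glycoprotein Cd24a (1.96, standard error 0.45) and Lrrc61 (4.27, standard error 1.08), and St8sia1, a sialyltransferase of ganglioside synthesis (4.28, standard error 1.09). In St8sia1 a single mid cell held 43.1 CPM and the rest at most 4.35 CPM. Their unadjusted p was 0.00181 to 0.00337.

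On the mid side, Ttr, the carrier of thyroid hormone made by the choroid plexus, was at 11.4, 13.2 and 48.0 CPM in leaky and 119, 68.0 and 528 CPM in mid pools. All 8 leaky cells lay below the mid median, at 1.93 to 72.3 CPM (median 11.2) against 0.431 to 835 CPM (median 183); the difference was -3.07 (standard error 0.45, p = 7.29e-05, edgeR adjusted p = 0.459). It passed the test when mid cell 5, the deepest library, was left out (-3.63). Cartpt, the precursor of the CART neuropeptides (chr13:99898489-99901091, minus strand), was at 2.31 to 43.6 CPM in leaky cells (median 9.41) and 20.5 to 244 CPM in mid cells (median 46.8). Of 8 leaky cells, 6 lay below every mid cell (-3.84, standard error 0.84, p = 0.00134). Rgs12, which shortens G-protein signals (chr5:34949445-35039644, plus strand), reached 10 CPM in 3 of 8 leaky and 8 of 9 mid cells, at pool levels of 0.185, 2.62 and 11.5 CPM against 60.0, 105 and 152 CPM (-5.60, standard error 1.06, p = 0.000498). Grik1, the GluK1 kainate receptor subunit, was at medians of 15.1 and 60.3 CPM (-2.85, standard error 0.68, p = 0.00233).

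Sh3bp4, an adaptor in endocytosis (chr1:89070415-89155068, plus strand), had the smallest p of all (4.05e-05, edgeR adjusted p = 0.459) at pool levels of 0.443, 1.48 and 0.222 CPM against 74.7, 122 and 48.9 CPM (-7.12, standard error 0.97). In cells it was less clean: 4 of 9 mid cells held 35.2 to 134 CPM, the other 5 held 0 to 5.31 CPM, and 1 leaky cell held 25.3 CPM. Nrbp2, a pseudokinase, had a difference of -3.85 (standard error 0.76). The other two of this side, Olig1 and Pdgfra, belong to the glial markers below. Cnr1, the CB1 cannabinoid receptor of another interneuron class, was at medians of 2.68 and 43.4 CPM (-3.02, standard error 0.83, p = 0.00536), with 7 of 9 mid cells above every leaky cell. Cck, in the same list of markers of other interneuron classes, ran the other way. It was at medians of 173 and 80.1 CPM (1.17, standard error 0.75, p = 0.152). The counts of that list are given below.

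The leaky cell of males at P36 took no part in the fit. Against the mid median it lay on the fitted side for 7 of the 8 genes above on the leaky side and for 4 of the 8 on the mid side. Several of these lay close to the mid median or near 0: Scrn2 was at 0.322 against 0.215 CPM, Kcng4 at 2.13 against 1.08 CPM, Nrbp2 at 14.8 against 15.3 CPM and Cartpt at 43.6 against 46.8 CPM. For Rgs12 it held 131 CPM, above the mid median of 77.5 CPM, and for Ptbp1 19.3 CPM, above every mid cell.

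**Figure D3:**
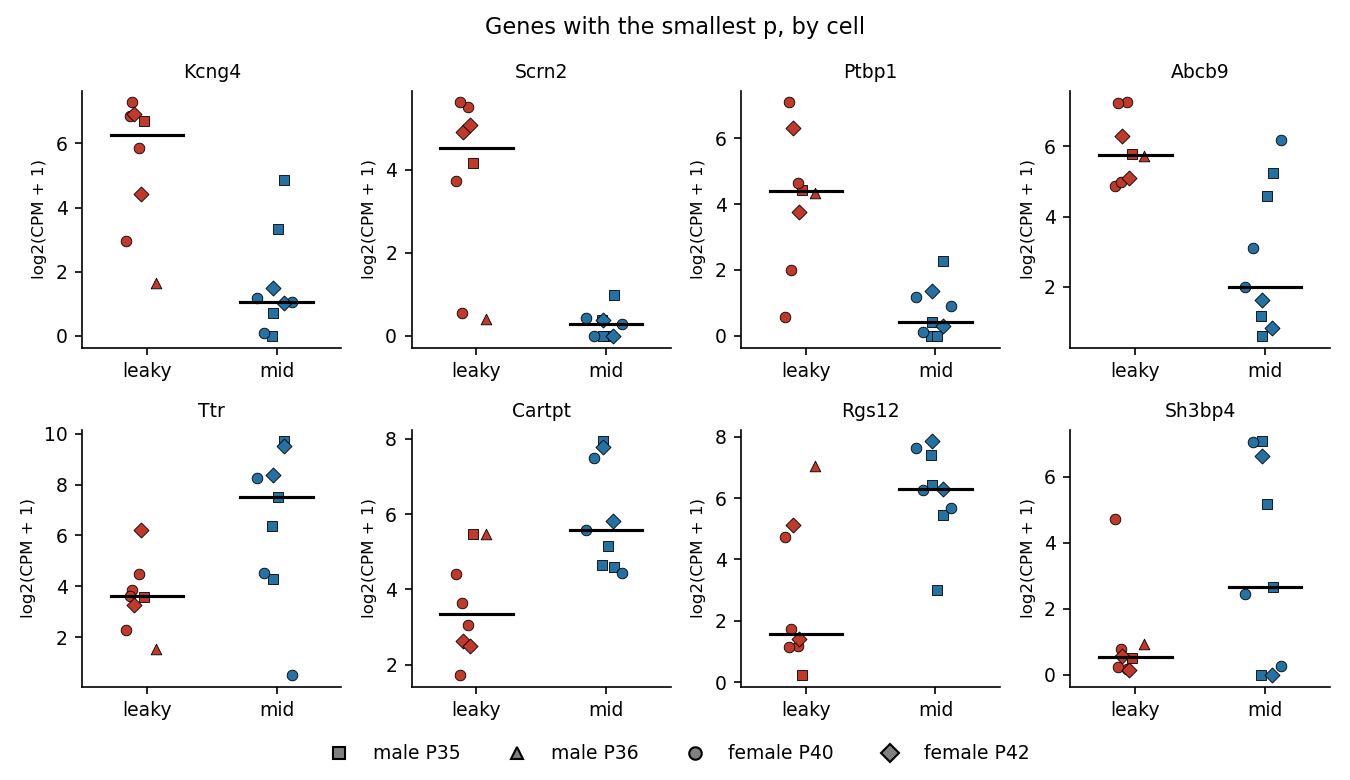
Levels of 8 genes of small unadjusted p in single cells, as log2(CPM + 1), for 8 small leaky (red) and 9 small mid cells (blue); symbols give the sex and postnatal day and the bar is the median. Kcng4, Scrn2, Ptbp1 and Abcb9 lie higher in leaky cells, Ttr, Cartpt, Rgs12 and Sh3bp4 lie higher in mid cells, and in every panel at least 1 cell sits within the range of the other group.

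Transcripts of mitochondria and of other cell types also had unlike values in the groups. All 13 mitochondrially encoded genes were negative (median -1.06). In each of the 3 pools 12 of them were lower, as were 13.2% of all genes, and 7 were lower at an unadjusted p under 0.05, as were 2.21% of all genes. The respiratory subunit mt-Nd4 was at 1205, 1347 and 555 CPM in leaky and 1928, 4789 and 764 CPM in mid pools (-0.99, standard error 0.31, p = 0.0107), and mt-Cytb at medians of 4040 and 5620 CPM (-0.74, standard error 0.29). The mitochondrial share of counts was 0.663% to 2.60% in leaky cells (median 1.45%) and 0.858% to 10.9% in mid cells (median 2.38%). It was close to equal in females at P42, at 0.913% and 0.910% on average. The 20 nuclear genes of oxidative phosphorylation had a median difference of 0.13, with 15 positive. Of 20 ribosomal protein genes 16 were negative (median -0.30); Rps2, one of them, was at medians of 188 and 314 CPM, with all 8 leaky cells below the mid median (-0.65, standard error 0.31, p = 0.0638).

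Blood, microglial and oligodendrocyte lists had negative medians, and a few mid cells held most of these transcripts. All 6 blood genes were negative (median -3.26, 4 with an unadjusted p under 0.05, where 2.21% of all genes were lower), and their summed level was 12.6 to 327 CPM in leaky and 37.5 to 29824 CPM in mid cells. Haemoglobin Hba-a1 was at 18.7, 103 and 30.7 CPM in leaky and 354, 2529 and 71.6 CPM in mid pools (-3.46, standard error 0.67). Mid cells 1, 2 and 4 (male P35) and 9 (female P40) each held over 1000 CPM of blood transcripts, and without these 4, left out after their values were seen, the median of the blood list was -0.28. All 10 microglial genes were negative (median -1.03), with summed levels of 66.0 to 809 CPM and 42.1 to 2392 CPM; C1qb, a complement gene, was at medians of 15.6 and 130 CPM (-2.28, standard error 0.77, p = 0.0162). Of the 10 microglial markers, 1 had a median under 1 CPM in leaky and 0 in mid cells.

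Of the 6 tested oligodendrocyte markers 5 were negative (median -1.05). Their summed level was 142 to 1671 CPM in leaky and 231 to 8775 CPM in mid cells, and the 3 highest, at 3613 to 8775 CPM, were mid cells 1, 2 and 4. The myelin genes Cnp (-1.09, standard error 0.37) and Mal (-6.20, standard error 1.86) had an unadjusted p under 0.05, while Mbp did not (-1.01, standard error 0.80). Medians were under 1 CPM for 6 of 10 oligodendrocyte markers in leaky and 5 of 10 in mid cells. The precursor genes Olig1 (-5.00, standard error 0.89) and Pdgfra (-7.37, standard error 1.55) led that list of 8, of which 4 were tested and all 4 negative. Pdgfra reached 10 CPM in 1 leaky and 3 mid cells. Of 10 astrocyte markers 8 were negative (median -0.29); Aldoc was at medians of 895 and 796 CPM. No marker of these glial and blood lists was at 0 in every cell of a group. Endothelial and mural markers were near absent, with medians under 1 CPM for 10 of 10 in leaky and 9 of 10 in mid cells. Markers of other interneuron classes had a median of -1.04 over 11 tested genes (5 positive, 6 negative). They summed to 44.1 to 567 CPM in leaky and 54.0 to 688 CPM in mid cells. Of the 11, 0 were higher and 2 lower at an unadjusted p under 0.05, where 1.48% of all genes were higher and 2.21% lower. The 2 were Cnr1, given above, and Sst. Sst was lower in all 3 pools (-5.08, standard error 1.69, p = 0.0148). Its highest single-cell level was 33.3 CPM in leaky and 257 CPM in mid cells. Excitatory neuron markers had a median of 0.39 over 10 tested genes and summed to 71.4 to 732 CPM and 51.7 to 1354 CPM. The part of these other cells in the results above was not tested.

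For several genes the values without the 4 mid cells of high blood transcripts were as large or larger. They were 7.20 for Kcng4, 9.39 for Scrn2, 6.44 for Ptbp1, 0.98 for Kcnc1, 2.04 for Nefm and -4.19 for Cartpt. For other genes they were smaller in size: -1.69 for Ttr, -0.28 for Hba-a1, -0.58 for Cnp and -4.16 for Mal. When only mid cell 5 was left out, the first genes were all smaller in size than with all cells. They were 5.31 for Kcng4, 7.31 for Scrn2, 5.62 for Ptbp1, 0.72 for Kcnc1, 0.92 for Nefm and -3.00 for Cartpt. Cnp (-0.77) and Mal (-4.64) were also smaller, and Ttr (-3.63) and Hba-a1 (-4.14) were larger. The genes named are examples, and how many of all genes moved either way was not counted. The median of the mitochondrial list without the 4 mid cells of high blood transcripts was -0.98. The microglial and oligodendrocyte medians were -0.57 and -0.58, against -1.03 and -1.05 with all cells. The median of all genes without these mid cells was 0.12. In males at P35 the fit without these 4 leaves mid cell 3 alone beside 1 leaky cell. In females at P40 it leaves mid cells 5 and 6, at 52.3 and 4.64 M counts. In that fit 0 of 12013 genes passed the edgeR test, with 382 at an unadjusted p under 0.05.

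**Figure D4:**
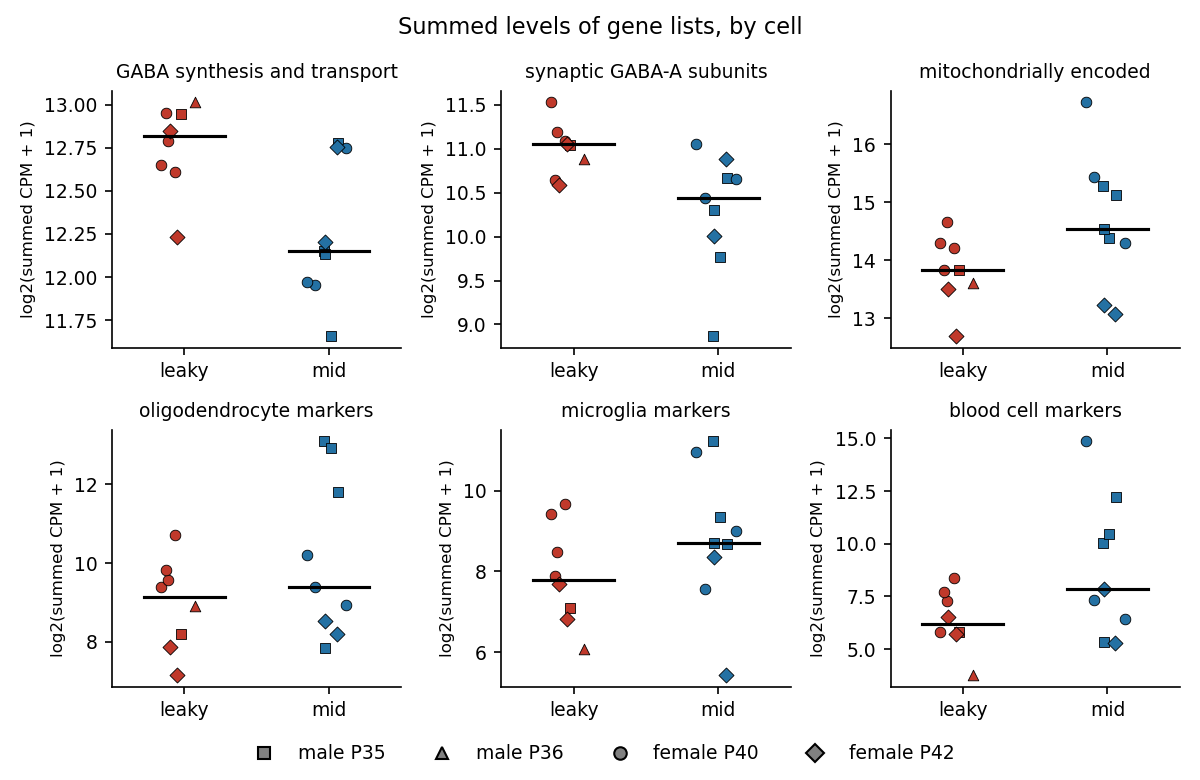
Summed level of 6 gene lists in single cells, as log2(summed CPM + 1), for 8 small leaky (red) and 9 small mid cells (blue); symbols give the sex and postnatal day and the bar is the median. Oligodendrocyte and blood transcripts are highest in a few mid cells (up to 8775 and 29824 CPM), and the groups overlap in every list.

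Genes driven by activity or by tissue handling gave no small p. Of 17 tested immediate early genes 0 had an unadjusted p under 0.05 (median 0.29); Npas4, an activity-dependent transcription factor, was at medians of 18.7 and 0.904 CPM but at 25.4, 14.9 and 21.4 CPM against 0.246, 16.5 and 0.63 CPM in the pools (4.31, standard error 2.32). Of 15 stress and heat shock genes 0 had an unadjusted p under 0.05 (median 0.06). Perineuronal net genes, the matrix that surrounds many PV cells, summed to 416 to 729 CPM in leaky and 236 to 959 CPM in mid cells, with 3 positive and 6 negative of 9 tested. The AMPA receptor list gave 5 positive and 6 negative of 11 tested, and the NMDA and kainate list 4 and 7 of 11.

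To set resistance beside size, the small leaky cells were compared with 17 large leaky cells (cm above 40, rm at most 270). The small leaky cells were also compared with 12 small high cells (cm at most 40, rm at least 440). Each comparison used 8 sums over 4 pools. The leaky cell of males at P36, left out of the fit against mid cells, entered both as the only leaky cell of its pool. These comparisons share all other small leaky cells with the first, so their values are not independent. Values given side by side below rest on leaky sets that differ by that cell, and its part in them was not tested. Against large leaky cells, 0 of 12433 genes were higher (0%) and 0 lower (0%) at an edgeR adjusted p under 0.05, with 205 higher (1.65%) and 229 lower (1.84%), together 434 (3.49%), at an unadjusted p under 0.05 and 168 in DESeq2; 46.5% of the differences were positive. Against small high cells, 0 of 12354 were higher (0%) and 0 lower (0%), with 190 higher (1.54%) and 250 lower (2.02%), together 440 (3.56%), at an unadjusted p under 0.05 and 201 in DESeq2; 45.9% of the differences were positive.

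For Kcnc1 the difference of small leaky cells was 0.92 from mid, 0.44 from large leaky and 0.62 from small high cells (p = 0.022, 0.0465 and 0.0182). For Kcna2 the same differences were 0.75, 0.63 and 0.63 (p = 0.114, 0.0153 and 0.0176). For Pvalb the values were 2.77 from mid, -0.09 from large leaky (standard error 0.22) and 1.83 from small high cells (standard error 0.47, p = 0.00448), with medians of 145, 46.3, 121 and 36.3 CPM in small leaky, mid, large leaky and small high cells. Ift27 followed a like order, at 1.91, 0.37 (p = 0.204) and 1.11 (p = 0.00465). None of these p-values passed the adjustment.

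For Kcng4 the difference was -0.28 from large leaky cells (standard error 1.02) and 1.49 from small high cells (standard error 1.35), with single cells at 0.299 to 208 CPM and 0.403 to 128 CPM in those groups. Scrn2 gave 3.67 (standard error 2.83) and 2.89 (standard error 2.46), Ptbp1 1.74 (standard error 0.91) and 0.83 (standard error 0.64), and Abcb9 0.39 and 0.01. On the other side, Ttr was negative in both (-3.18, p = 0.0114, and -3.23, p = 0.021), as were Cnr1 (-2.76, p = 0.000142, and -2.13, p = 0.0461), C1qb (-2.48, p = 0.000765, and -3.22, p = 0.00548) and Rgs12 (-3.49, p = 0.0489, and -2.39, p = 0.0369). Cartpt was not (0.25 and -1.27). The mitochondrial genes had a median of -0.14 from large leaky and -0.32 from small high cells, against -1.06 from mid cells, and the blood list -0.52 and -0.06 against -3.26.

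**Figure D5:**
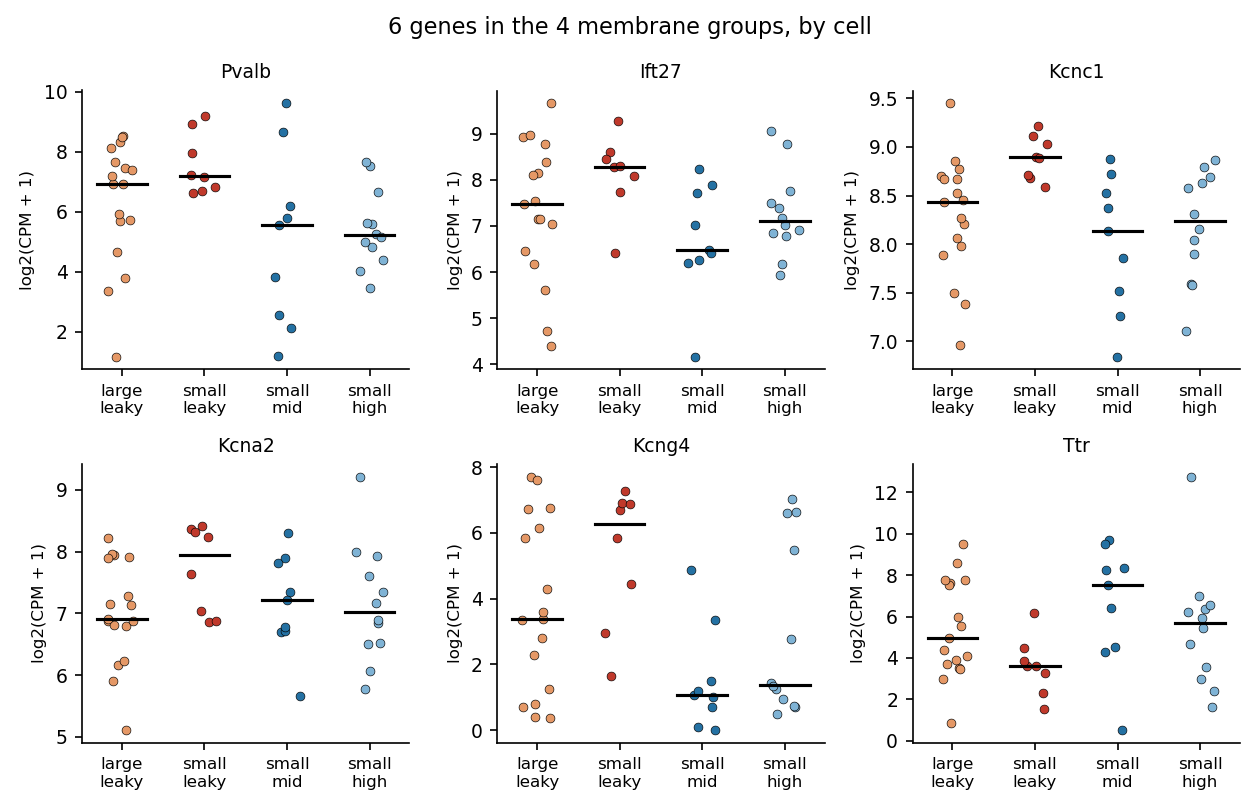
Levels of 6 genes in single cells, as log2(CPM + 1), in large leaky (17 cells), small leaky (8), small mid (9) and small high cells (12); bars are medians. Pvalb is higher in both leaky groups (medians 121 and 145 CPM) than in small mid and small high cells (46.3 and 36.3 CPM), and Kcng4 spans nearly its whole range within large leaky and small high cells.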

How the data were processed

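Whole-number counts of 25648 genes in 58 cells were deposited by the authors, not normalized; all 58 columns matched a labelled cell. Cytosol was taken by patch pipette and per the labels' protocols the library kit was Nextera XT. STAR, edgeR and GRCm38 are named in the submitters' processing notes; their roles, the counting tool, annotation and strand setting are absent from those notes, so overlapping genes could share reads. Other deposited tables were not used here.

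Cells were grouped by the labels rm and cm. Pools of different age were taken to come from different animals; since the pool (sex and age) is a label that both groups share, it is the block. Counts summed per pool and group were tested with edgeR 4.0.16 (R 4.3.3; filterByExpr, TMM, quasi-likelihood F test, two-sided, Benjamini-Hochberg over all genes tested, threshold 0.05; 2 residual degrees of freedom). Standard errors were obtained from the log2 difference and its F statistic. DESeq2 1.42.0 and limma 3.58.1, other scaling and filters, thinning each cell to 2054581 counts, a gap in rm (cells at 250 to 300 left out), and leaving out cells or pools were alternatives. The 4 blood-rich cells and the sex interaction were chosen after seeing the data. The interaction called 0 genes (smallest edgeR adjusted p 0.0849; 465 genes at an unadjusted p under 0.05; not run in another tool).

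The members and the lists were chosen with earlier results of these data known. Named genes were the 8 per direction with the smallest p, the same sign in 3 pools, a count in at least 9 of 17 cells and no cell over 50% of the higher group's CPM; the smallest-p and the most abundant member of each list, named where they help to describe a list; and a fixed set of PV, GABA and channel genes, some of which are not reported here. Kcns2, Ano1, Syt2, Nefl, Nefh, Ina, Sptbn4, Gabrb2, Cnp, Actb, Tac1, Sox6, Slit2 and Pthlh, and the list of silent Kv subunits, were chosen after their values were seen. Sst was chosen so as well, and is left out of the gene counts in the sections below. The fit was tested on simulated sums of 12593 genes; at 16-fold it recovered 22 of 50 genes, and it called 2 of 12393 unchanged ones. No 2 of the 17 libraries were identical (136 pairs, correlation of log2(CPM + 1) 0.664 to 0.908). Coordinates are from GENCODE vM21 on GRCm38.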

Additional observations from a re-analysis of the deposited data

Results flagged for a closer look

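In 21 of 228 groups of values (genes named above and summed lists, log2(CPM + 1)), 1 cell stood further from its group than Dixon's 95% limit; chance flags about 1 in 20 groups. Of these, 8 were mid cell 1 (male P35), a cell of 3.22 M counts. It was lowest in its group for Scn1a (47.5 CPM), Slc12a5 (6.52 CPM), Kcnj3 (4.35 CPM) and Gabrd (11.2 CPM), and for the summed HCN (56.2 CPM), extrasynaptic GABA-A (32.6 CPM) and TRP channel lists (63.7 CPM). It was highest for Gjd2 (85.1 CPM). The same cell had the highest summed oligodendrocyte (8775 CPM) and microglial (2392 CPM) transcripts of the 17.

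Among other mid cells, cell 2 (male P35) was lowest for Rgs12 (7.09 CPM) and Ift27 (16.96 CPM), and cell 4 (male P35, 2.07 M counts) was highest for Scrn2 and Akr1c18, at 0.966 CPM in each. Cell 6 (female P40) was highest for St8sia1 (43.1 CPM), and cell 5 (female P40) was lowest for summed markers of other interneurons (54.0 CPM). Among leaky cells, cell 2 (male P36) was highest for Pdgfra (12.9 CPM) and Ano1 (31.2 CPM), and cell 3 (female P40) was highest for Sh3bp4 (25.3 CPM) and lowest for Hcn2 (14.1 CPM). Cell 5 (female P42) was lowest for Lrrc61 (0.238 CPM), and cell 6 (female P42) was highest for Akr1c18 (147.5 CPM) and lowest for Syt2 (1.89 CPM).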

How the results depend on the processing

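The count of genes passing between leaky and mid cells was 0 with no replicate block (680 at an unadjusted p under 0.05), RLE scaling, limma, thinning, the gap in rm, and without the 4 blood-rich cells. It was 10 with no filter on low counts (1 higher, 9 lower; median of all genes -0.20), 372 in DESeq2, and 0 to 1 when 1 cell or pool was left out: Ttr without mid cell 5, and Hba-a1 without females at P42. The counts were 0 to 0 without each pool in the comparisons with large leaky and small high cells, and 168 and 201 in DESeq2. Of 72 named genes 53 kept their sign in up to 27 alternatives, and DESeq2 called 30. Of all 12593 genes DESeq2 called 1.14% higher and 1.81% lower, and the share that kept their sign was not counted. Many of the 72 were chosen by a small p in these data or after their values were seen. Their counts therefore describe the named genes and are no independent support. In limma on means over cells, where the median of all genes was 0.20, the sign turned for Slc32a1 (0.16), Kcnk2 (0.43), Kcnj12 (0.12), Nalcn (0.46), Kcnt1 (0.21), Gabrd (0.39) and Slit2 (0.15). It turned with no replicate block, a fit that also took in the male P36 cell, for Aldoc (0.057), Pvalb (-0.059), Gabrd (0.12) and Gjd2 (-0.35), after thinning for Slc32a1 (0.012), Kcnj4 (-0.32) and Gabrd (0.15), with the gap in rm for Slc12a5 (-0.0015), and without the 4 blood-rich cells for Mbp (0.032) and Kcnc2 (-0.087). Leaving out 1 cell or pool turned Mbp (-2.13 to 0.18), Cplx1 (-0.0025 to 0.42), Aldoc (-1.74 to 0.44), Gad2 (-0.76 to 0.025), Slc32a1 (-1.42 to 0.59), Kcnk1 (-0.40 to 0.14), Kcnk2 (-0.97 to 1.10), Kcnj4 (-0.59 to 1.65), Kcnj12 (-3.58 to 1.01), Hcn2 (-0.16 to 0.58), Nalcn (-1.09 to 0.20), Kcna1 (-0.068 to 1.24), Kcnc2 (-0.27 to 0.38), Kcnt1 (-1.86 to 0.70), Gabrd (-0.73 to 0.56), Gjd2 (-1.62 to 1.46) and Slit2 (-1.55 to 0.18). The cause of these turns was not tested. Where a cell was the only one of its sum, its pool was left out. The medians of 8 lists kept their sign in 27 alternatives: calcium channel pores, GABA synthesis, neurofilament, mitochondrial, ribosomal, oligodendrocyte, precursor and blood genes. With 2 residual degrees of freedom, 4-fold differences were seldom resolved.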
